A study of Mus musculus with 6 samples.

Results

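The genes described here are 10 targets of p53 whose products slow the cell cycle, restrain Akt signalling or temper cellular stress: Cdkn1a, Ccng1, Btg2, Psrc1, Plk2, Plk3, Phlda3, Sesn1, Trp53inp1 and Zmat3. They were taken by gene symbol, with every probe row kept apart, which gave 18 of the 30146 probe rows and 10 of the 21400 genes in the count table. The cisplatin group consisted of pancreatic islets from 3 wild-type male C57Bl/6 mice, cultured for 48 h in RPMI medium with serum and antibiotics and with 10 uM cisplatin, a platinum drug that crosslinks DNA. The vehicle group consisted of islets of the same 3 mice, kept for the same time in the same medium with 0.9% saline, so that each mouse gave 1 library to each group. The age of the mice is not given in the sources used here. RNA was read with TempO-Seq, in which pairs of short detector oligonucleotides are ligated on their target RNA and sequenced, so a probe row reports the stretch of RNA under 1 probe and levels of different probes are not compared.

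DNA damage stabilises p53, a transcription factor that binds response elements built from a pair of similar half-sites and raises the transcription of many genes. Among its targets, some block cyclin-dependent kinases or mitosis, some damp growth signalling through Akt and mTORC1, and others trigger cell death. Most adult islet cells rarely divide, and loss of mature function or death is the outcome of damage usually studied in them.

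The libraries held 1116916 to 1366829 counts with cisplatin and 1470227 to 2272276 with vehicle. Levels are given as CPM, the counts of a row relative to the size of its library after scaling with TMM factors, and 1 count was worth 0.846 to 1.07 CPM in cisplatin libraries and 0.394 to 0.631 CPM in vehicle libraries. Cisplatin library 3 stood apart, with 28.6% of its counts on mitochondrially encoded rows, against 2.83% and 3.11% in cisplatin libraries 1 and 2 and 0.188% to 1.74% in vehicle libraries. Of 8 beta cell markers 7 were tested and 3, Mafa, Nkx6-1 and G6pc2, were lower (42.9%, against 13.9% of all tested rows). The summed level of the 8, over 1 row per gene, was 59661 to 140043 CPM with cisplatin and 91809 to 161771 CPM with vehicle. Most of it came from Ins1, Ins2 and Iapp, which were not called. Of 6 alpha cell markers 5 were tested and 2 were lower (40.0%), at a summed 8029 to 10974 CPM with cisplatin and 17380 to 50855 CPM with vehicle. Of 9 immune cell markers 6 were tested and 5 were lower (83.3%), with a summed level of 11.0 to 56.8 CPM in cisplatin libraries against 132 to 212 CPM in vehicle libraries, and Adgre1 had 0 counts with cisplatin and 4, 0 and 6 with vehicle. Of 7 endothelial markers 3 were tested, with 1 higher (33.3%, against 11.1% of all tested rows) and 2 lower (66.7%). Over 1 row per gene they summed to 44.0 to 79.9 CPM with cisplatin and 68.2 to 99.6 CPM with vehicle. Over all their probe rows the sums were 102 to 137 CPM with cisplatin and 75.8 to 113 CPM with vehicle. The direction of the endothelial sum thus depended on the rows taken. Cdh5 and Emcn had 0 counts with cisplatin and only 6 and 1 in all with vehicle. Of 4 delta and PP cell markers, all tested, 1 was lower (25.0%). Of 7 stromal markers 4 were tested and 1 was lower (25.0%). Of 7 acinar and 6 duct markers 1 and 3 were tested, and 0 were called. The part of these markers and of the mitochondrial counts in the results on the 10 genes was not tested. In bulk islets, fewer cells of a type and less RNA per cell cannot be told apart.

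Of the 10 genes, 7 were higher in cisplatin islets than in vehicle islets: Cdkn1a, Ccng1, Btg2, Psrc1, Plk2, Phlda3 and Trp53inp1. Their fitted rises ran from 3.31-fold for a Btg2 probe to 69.1-fold for a Psrc1 probe that had 5 counts over the vehicle libraries. Plk3 and Sesn1 did not pass the test, and Zmat3 had too few counts to be tested. Of the 18 rows 13 passed the filter on low counts, 10 were called higher and 0 lower, where 11.1% of all 9381 tested rows were called higher and 13.9% lower (edgeR quasi-likelihood test, adjusted p under 0.05). The 3 tested rows that were not called also had an unadjusted p of 0.05 or more, and DESeq2 called 0 rows lower as well. The 13 rows had a median log2 fold change of 2.50, against -0.07 over all tested rows. The filter asked for its minimum in 3 libraries, and 4 of the 10 called rows (Cdkn1a probe 66319, Psrc1 probe 66978 and both Phlda3 rows) reached it in all 3 cisplatin libraries but in at most 1 vehicle library, so this count and median describe the rows that passed and not all 18. In 10 rows each cisplatin library lay above each vehicle library, as in 19.1% of all tested rows.

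**Figure D1:**
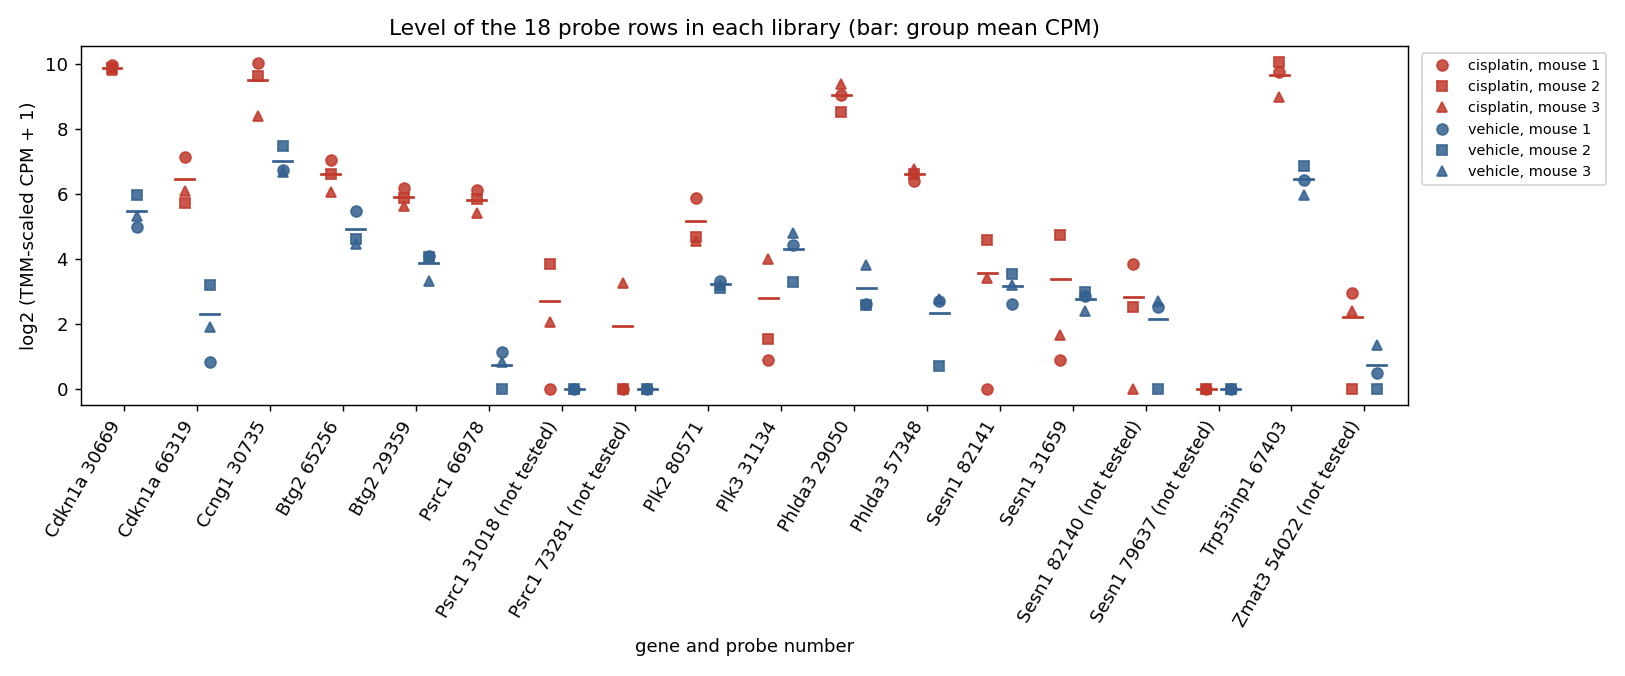
Level of each of the 18 probe rows as log2 of TMM-scaled CPM plus 1, with cisplatin libraries in red and vehicle libraries in blue, 1 symbol per mouse and a bar at the group mean. The red points lie above all blue points in 10 of the 13 tested rows, while the Plk3 and Sesn1 rows overlap.

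Cdkn1a codes for p21, which binds and inhibits cyclin-dependent kinases. Its probe 30669 read 1005, 948 and 899.7 CPM in cisplatin libraries 1, 2 and 3, against 30.4, 61.2 and 39.4 CPM in the vehicle libraries of the same mice. The cisplatin values lay within a coefficient of variation of 5.57%, the smallest among the 10 called rows, while that of the vehicle values was 36.3%. The log2 fold change was 4.45 ± 0.34 (SE; edgeR adjusted p = 8.87e-06), and the difference within each mouse was 5.04, 3.95 and 4.51. The second probe, 66319, had 167, 55 and 63 counts with cisplatin and 2, 13 and 7 with vehicle, which are 141, 52.3 and 67.6 CPM against 0.791, 8.21 and 2.76 CPM. Its log2 fold change was 4.58 ± 0.66 (edgeR adjusted p = 3.09e-04), or 5.55 without vehicle library 2, 3.53 without mouse 1 and 5.82 without mouse 2, and its differences within mice were 7.16, 2.63 and 4.53. Both probes thus gave separate groups. The second spread more widely in both, with a coefficient of variation of 54.6% with cisplatin and 98.1% with vehicle, where its counts were 13 or fewer.

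Ccng1 codes for cyclin G1, a p53-induced cyclin that recruits the phosphatase PP2A and acts back on Mdm2. Its only probe read 1058, 794 and 339 CPM with cisplatin and 107, 179 and 101 CPM with vehicle, again without overlap. The lowest cisplatin value came from library 3, and the differences within mice were 3.30, 2.14 and 1.74. The log2 fold change was 2.50 ± 0.40 (edgeR adjusted p = 6.76e-04).

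The start regions of the genes were searched for p53 sites because p53 is the regulator the genes share. RefSeq promoter windows (GRCm38.p6, 250 bases before to 50 bases after a start site) were found for 8 of the 10 genes, 11 windows in all, while Trp53inp1 and Zmat3 had none. The consensus p53 half-site of 10 bases, which is its own reverse complement and so reads the same on both strands, was searched singly with no mismatch and as a full site of 20 bases with adjoining half-sites. The upstream Cdkn1a start and the Ccng1 start each held a full site with 1 mismatch, and 0.0883% of 32841 promoters of the same length held one with at most 1. The Cdkn1a site (chr17:29090928-29090947, plus strand) ended 2822 bases before the second annotated start of the gene, whose own window had no better match than 5 mismatches. The 250 bases before both starts are shown, in lower case with p53 half-sites and the full site in capitals.
Cdkn1a, upstream start, chr17:29090729-29090978, plus strand: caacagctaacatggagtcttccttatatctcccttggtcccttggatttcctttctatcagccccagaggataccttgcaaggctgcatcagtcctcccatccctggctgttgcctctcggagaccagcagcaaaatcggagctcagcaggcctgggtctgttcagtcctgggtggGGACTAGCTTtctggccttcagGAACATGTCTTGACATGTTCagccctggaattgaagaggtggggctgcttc
Ccng1, chr11:40755287-40755536, minus strand: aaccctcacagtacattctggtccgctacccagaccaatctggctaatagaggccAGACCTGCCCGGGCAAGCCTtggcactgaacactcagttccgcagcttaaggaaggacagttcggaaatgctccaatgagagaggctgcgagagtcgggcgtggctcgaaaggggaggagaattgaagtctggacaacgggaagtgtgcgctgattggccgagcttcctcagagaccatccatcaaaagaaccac

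For each of the 8 genes the stretch of 20 bases with the fewest mismatches to the full site is shown, from its best-matching start. The stretches show how far the others are from the consensus of adjoining half-sites, and the nearest stretch need not be a site. Half-sites set apart by other bases were not searched for as pairs. Capitals mark bases that match the consensus and small letters those that do not.
Cdkn1a, upstream start: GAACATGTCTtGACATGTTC
Ccng1: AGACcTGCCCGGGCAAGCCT
Sesn1, second start: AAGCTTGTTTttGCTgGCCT
Btg2: GGGaAAGTCCGGGCAgagCC
Plk2: GctCTTGCTCGcACAAGCga
Plk3: GAGCAgGgTTAcACcTGCCa
Phlda3: GGcCcTGTCCGGGCggGTgC
Psrc1: AAGaAAtTCgAAcgAAGCTC
The window of the second Sesn1 start had 3 mismatches, a number or fewer that 6.29% of all promoters reached. That of the first Sesn1 start had 6, a number or fewer that 98.5% reached. The Btg2 window had 4, a number or fewer that 30.2% reached. Plk2, Plk3, Phlda3 and Psrc1 were at 5, where 76.6% of promoters had at most that many. An exact half-site was present in 8.36% of all promoters, and among the 11 windows in those of the upstream Cdkn1a start, Ccng1 and the second Sesn1 start. Such a match is a string of letters in a short window and says nothing of sites elsewhere in the gene or of binding.

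Btg2 belongs to the BTG and TOB family of antiproliferative proteins, which bind the CCR4-NOT deadenylase to messenger RNAs. Its probe 65256 read 131, 97.9 and 65.4 CPM with cisplatin, against 43.9, 23.4 and 21.3 CPM with vehicle. Probe 29359 read 71.9, 58.0 and 48.3 CPM with cisplatin, against 16.2, 15.8 and 9.05 CPM with vehicle. In both rows the 3 cisplatin libraries kept the order 1, 2, 3 from high to low, and the groups did not overlap. The log2 fold changes were 1.73 ± 0.40 (edgeR adjusted p = 0.00674) and 2.12 ± 0.42 (edgeR adjusted p = 0.00243), among the smaller rises of the 7 genes. Probe 65256 was not called without both libraries of mouse 2 (edgeR adjusted p = 0.0731).

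Psrc1 codes for a microtubule-associated protein of the mitotic spindle. Probe 66978 had 81, 60 and 39 counts with cisplatin and 3, 0 and 2 with vehicle, which are 68.5, 57.0 and 41.8 CPM against 1.19, 0 and 0.787 CPM. The vehicle islets were thus close to no signal, and the fitted log2 fold change of 6.11 ± 0.65 (edgeR adjusted p = 5.11e-05) rests on 5 vehicle counts. Thinned to the shallowest library, the counts gave 8.97, so the size of the rise is known only roughly. The other Psrc1 probes were below the filter and uneven between cisplatin libraries. Probe 31018 had 0, 14 and 3 counts with cisplatin and 0 in all vehicle libraries. Without the filter it was called higher (edgeR adjusted p = 0.0328). Probe 73281 had 8 counts, all in cisplatin library 3, and 0 in vehicle libraries. Without the filter it was not called (edgeR adjusted p = 0.17). In both rows a cisplatin library had 0 counts like the vehicle libraries, so no fold is given. Reads copied by amplification do not each stand for a separate molecule.

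Plk2 and Plk3 code for stress-responsive polo-like kinases, relatives of the mitotic kinase Plk1. The Plk2 probe read 57.5, 24.7 and 22.5 CPM with cisplatin and 9.09, 7.58 and 8.27 CPM with vehicle. All cisplatin libraries were above the vehicle libraries, and library 1 was highest by far. The log2 fold change of Plk2 was 2.06 ± 0.53 (edgeR adjusted p = 0.0125). This call was lost without vehicle library 1 (edgeR adjusted p = 0.0542) or 3 (edgeR adjusted p = 0.0605) and without any 1 of the 3 mice (edgeR adjusted p = 0.0540 to 0.138).

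Plk3 was lower with cisplatin in each mouse but did not pass the test. Its probe had 1, 2 and 14 counts with cisplatin and 52, 14 and 69 with vehicle, which are 0.846, 1.90 and 15.01 CPM against 20.6, 8.84 and 27.2 CPM. In GENCODE vM21 the gene overlaps Tctex1d4 on the opposite strand, and where the probe lies is not used here. Cisplatin libraries 1 and 2 lay below all vehicle libraries, but library 3 lay above vehicle library 2. The differences within mice were -4.03, -1.95 and -0.81. The log2 fold change was -1.72 ± 0.86 with a 95% interval of -3.56 to 0.11 (edgeR adjusted p = 0.160). It was called lower without cisplatin library 3 (-3.73, edgeR adjusted p = 0.0173), the library with the high mitochondrial share, but not without both libraries of mouse 3 (-3.38, edgeR adjusted p = 0.118). It was also called lower with library totals alone as the scale (-2.35, edgeR adjusted p = 0.0378).

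Phlda3 codes for a small protein with a pleckstrin homology domain that competes with Akt for membrane lipids and so represses Akt, and it is known as a restraint on islet endocrine cell growth. Probe 29050 read 528, 369 and 676 CPM with cisplatin and 5.14, 5.05 and 12.99 CPM with vehicle. Probe 57348 read 83.7, 97.0 and 108 CPM with cisplatin, against 5.53, 0.631 and 5.90 CPM with vehicle. Both rows set the groups far apart, and both were highest in cisplatin library 3. The log2 fold changes were 6.04 ± 0.44 (edgeR adjusted p = 8.52e-06) and 4.47 ± 0.52 (edgeR adjusted p = 8.51e-05), with the first at 6.63 without vehicle library 3.

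Trp53inp1 codes for a nuclear stress protein that modulates p53 and takes part in autophagy. Its probe read 866, 1065 and 506 CPM with cisplatin and 84.6, 115 and 62.2 CPM with vehicle, with no overlap. The log2 fold change was 3.22 ± 0.35 (edgeR adjusted p = 5.35e-05), and the mice gave 3.35, 3.21 and 3.02. That was a span of values between mice no wider than the SE, whereas for Ccng1 the mice ranged from 1.74 to 3.30.

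Sesn1 codes for sestrin 1, which restrains mTORC1 through the GATOR complexes and has antioxidant roles. Probe 82141 had 0, 24 and 9 counts with cisplatin and 13, 17 and 21 with vehicle, or 0, 22.8 and 9.65 CPM against 5.14, 10.7 and 8.27 CPM. Probe 31659 had 1, 27 and 2 counts with cisplatin and 16, 11 and 11 with vehicle, or 0.846, 25.7 and 2.14 CPM against 6.32, 6.95 and 4.33 CPM. In both rows cisplatin library 2 was highest of all 6 libraries and cisplatin library 1 lowest. The log2 fold changes were 0.43 ± 0.96 with a 95% interval of -1.64 to 2.50 (edgeR adjusted p = 0.794) and 0.70 ± 1.006 with an interval of -1.45 to 2.86 (edgeR adjusted p = 0.662), so rises and falls of several fold were both within reach. Without cisplatin library 2 they were -0.78 and -1.96, neither called. Probe 82140 had 16, 5 and 0 counts with cisplatin and 12, 0 and 14 with vehicle and was not tested. Probe 79637 had 0 counts in all 6 libraries, which allows up to 1.18 to 3.22 CPM by library.

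Zmat3 codes for a zinc finger protein that binds RNA and acts on splicing and messenger RNA stability. Its probe had 8, 0 and 4 counts with cisplatin and 1, 0 and 4 with vehicle, too few for the test. With no filter it had a log2 fold change of 2.17 that was not called (edgeR adjusted p = 0.493), so no change was detectable at this depth.

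**Figure D2:**
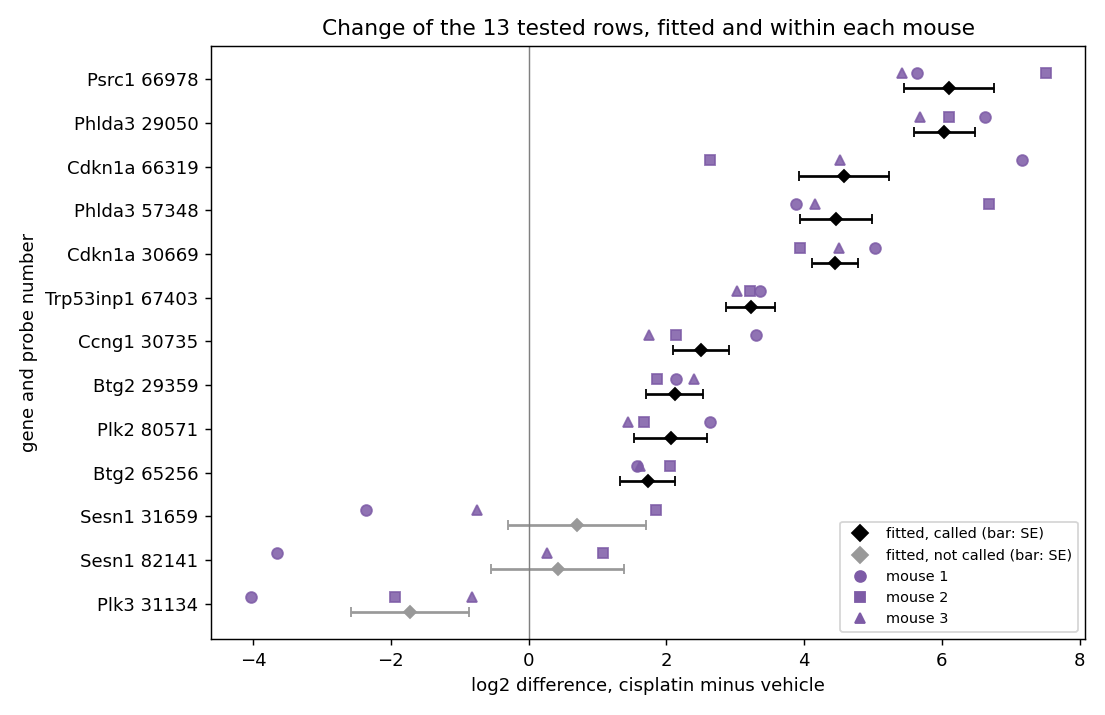
Log2 difference of cisplatin minus vehicle for the 13 tested rows, with the fitted value and its SE as diamonds and the difference within each mouse as circles, squares and triangles. All mouse values lie above 0 in 10 rows, the Sesn1 mice fall on both sides of 0, and the 3 Plk3 mice lie below 0.

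The genes that rose did not share 1 order of cisplatin libraries. Among the 10 called rows, library 1 was highest in 7, library 2 in 1 and library 3 in 2, while library 3 was lowest in 7. For 4 pairs of probes to the same gene, the log2 ratio within a library was compared between groups. It differed by -0.28 for Cdkn1a (exact permutation p = 0.7), -0.38 for Btg2 (exact permutation p = 0.3), 1.23 for Phlda3 (exact permutation p = 0.2) and -0.35 for the Sesn1 pair (exact permutation p = 0.9). After adjustment over the 4 pairs the exact permutation p-values were 0.6 to 0.9, and with 3 against 3 libraries the smallest raw p is 0.1. For Phlda3 the ratio was 2.65, 1.92 and 2.64 with cisplatin and -0.10, 2.50 and 1.11 with vehicle, where probe 57348 had 14, 1 and 15 counts.

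The rows whose differences within the 3 mice were nearest to those of Cdkn1a probe 30669, among 7877 tested rows of other genes with a mean of 10 CPM or more, included Inka2, Polg2, Dcxr and Tent5a. Inka2, an inhibitor of the kinase Pak4, gave 4.34, 3.92 and 4.17, a root mean square difference of 0.45 from Cdkn1a. Polg2, the accessory subunit of the mitochondrial DNA polymerase, gave 4.31, 3.92 and 4.19, which is 0.46 from Cdkn1a. Dcxr, a carbonyl reductase, and Tent5a, a noncanonical poly(A) polymerase, lay 0.54 and 0.56 away. Dcxr had 2, 2 and 4 counts with vehicle, so its differences rest on few counts.

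Other genes of the pathway were described by lists, with 1 row per gene, the one with the highest mean CPM among its tested rows. Of 25 other p53 targets 15 were tested, 9 of them (60%) were called higher and 0 lower, with a median log2 fold change of 1.94, where 11.1% of all tested rows were higher and 13.9% lower. The largest rises were those of Tnfrsf10b, a death receptor (5.14 ± 0.64), Dcxr (4.20 ± 0.72), Aen, an apoptosis-enhancing nuclease (3.44 ± 0.43), and Ei24, a protein of the endoplasmic reticulum (2.68 ± 0.35). The other 5 were Rps27l, Bax, Bbc3, Ddit4 and Gadd45a, at 1.70 to 2.40, of which Ddit4 lost its call without any 1 of cisplatin library 2 and the 3 vehicle libraries and with library totals alone. Tnfrsf10b had 6, 0 and 6 counts with vehicle, and Dcxr had 2, 2 and 4. Both reached the minimum of the filter in all 3 cisplatin libraries but in 0 vehicle libraries. The share and median of this list thus describe the rows that passed the filter. Among the 6 that were not called was Rrm2b, a p53-induced ribonucleotide reductase subunit (-0.85 ± 0.62). Of p53 and 11 of its regulators 8 were tested, with 0 called higher, 3 lower (37.5%, against 13.9% of all tested rows) and a median of -0.18. These 3 were Hipk2, a kinase that phosphorylates p53 (-3.70 ± 0.69, or -5.06 without cisplatin library 2), Atr (-3.23 ± 0.93, or -4.03 without cisplatin library 3) and Atm (-1.09 ± 0.37), the kinases that signal stalled forks and breaks. Hipk2 had 1, 6 and 1 counts with cisplatin, and Atr had 1, 1 and 3. Both reached the minimum of the filter in all 3 vehicle libraries but in 0 cisplatin libraries. The count and median of this list thus describe the rows that passed the filter. Atr was not called by limma-voom (adjusted p = 0.129), with the mouse as a block (edgeR adjusted p = 0.0542) or without cisplatin library 2 (edgeR adjusted p = 0.0602) or vehicle library 1 (edgeR adjusted p = 0.0844) or 2 (-2.50, edgeR adjusted p = 0.149), and Atm was called without cisplatin library 2 but not without any other single library. The probe row taken for Trp53, the p53 gene itself, had 0, 1 and 14 counts with cisplatin and 7, 0 and 16 with vehicle, and that of Mdm2, the ligase that degrades p53, had 8, 6 and 2 against 11, 0 and 6, both too few to be tested.

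**Figure D3:**
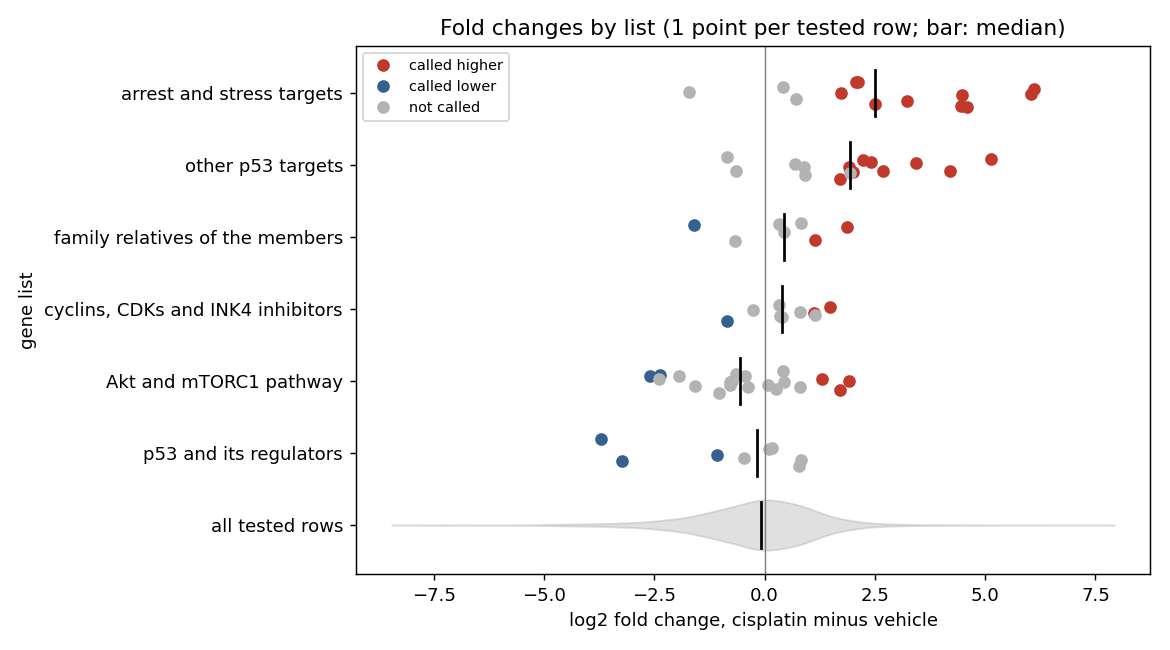
Fitted log2 fold changes of the tested rows of the 10 genes and of 5 gene lists, 1 point per row, coloured by the test, with a bar at the median and the spread of all 9381 tested rows at the bottom. The medians are 2.50 for the 10 genes and 1.94 for the other p53 targets, and lie between -0.55 and 0.44 for the remaining lists.

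Family relatives of the 10 genes were described in the same way. Of 15 relatives 7 were tested, with 2 called higher (28.6%), 1 lower (14.3%) and a median of 0.44, against 11.1% higher and 13.9% lower of all tested rows. Tob1, of the same family as Btg2, read 71.9, 100.8 and 35.4 CPM with cisplatin and 19.8, 17.1 and 19.7 CPM with vehicle (1.88 ± 0.43), and was not called without both libraries of mouse 2. Btg1 rose by 1.15 ± 0.30, a call lost without vehicle library 1 or 2 and with library totals alone. Sesn3, a sestrin like Sesn1, read 18.6, 39.0 and 9.65 CPM with cisplatin and 64.4, 94.7 and 45.3 CPM with vehicle (-1.59 ± 0.49), and kept its call without cisplatin library 2 (-2.25) or vehicle library 3 and lost it without any other single library. Cdkn1b, the p27 relative of Cdkn1a, was not called (0.44 ± 0.43), nor was Ccng2, the relative of Ccng1 (0.82 ± 0.29, edgeR adjusted p = 0.0553).

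Among 20 cyclins, cyclin-dependent kinases, their INK4 inhibitors and replication partners, 9 were tested, with 2 called higher, 1 lower and a median of 0.39. Shares were 22.2% higher and 11.1% lower, against 11.1% and 13.9% of all tested rows. Mcm2, a subunit of the replicative helicase, changed by 1.48 ± 0.38, Pcna, the sliding clamp that p21 binds, by 1.12 ± 0.38, and Ccnd2, cyclin D2, by -0.86 ± 0.27. With the mouse as a block 1 was higher and 1 lower, and without vehicle library 1 or 3 both numbers were 0. With library totals alone the number higher was 0. None of the 3 calls held without each single library: Mcm2 was lost without vehicle library 1 or 3, Pcna without any library other than cisplatin library 3, and Ccnd2 without cisplatin library 1 or 3 or vehicle library 1 or 3.

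The Akt and mTORC1 pathway, on which Phlda3 and the sestrins act, had 20 of 22 genes tested, with 3 higher (15%), 2 lower (10%) and a median of -0.55, against 11.1% higher and 13.9% lower of all tested rows. Nprl2, a subunit of the GATOR1 complex that inhibits mTORC1, read 169, 159 and 147 CPM with cisplatin and 44.7, 48.0 and 53.1 CPM with vehicle (1.70 ± 0.29). Rheb, the GTPase that activates mTORC1, was also called higher (1.29), but not without vehicle library 1 (edgeR adjusted p = 0.0516) or with library totals alone (edgeR adjusted p = 0.0697). Rragc, a Rag GTPase of the lysosome, changed by 1.90 ± 0.49 and was not called without vehicle library 1 or 3. Rptor, the mTORC1 subunit raptor, changed by -2.61 ± 0.68, was at -3.57 without cisplatin library 1 and was not called without vehicle library 1. Mtor, the kinase itself, changed by -2.38 ± 0.62 and was not called without vehicle library 1 or 3 or by limma-voom. Rptor and Mtor each reached the minimum of the filter in 3 vehicle libraries but in only 1 cisplatin library. Without vehicle library 1 the list had 1 higher and 0 lower, without vehicle library 3 it had 2 and 1, without cisplatin library 1 it had 3 and 5, and with library totals alone it had 2 and 6. Akt1, the kinase that Phlda3 represses, was not called (0.45 ± 0.32).

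Across all rows, library totals alone as the scale gave 459 higher and 2023 lower calls, against 1040 and 1304 with TMM factors, and put the median of all rows at -0.54 in place of -0.07. The 10 member rows that were called stayed higher on that scale, though Btg2 probe 65256 (edgeR adjusted p = 0.0497) and Plk2 (edgeR adjusted p = 0.0499) only just. Fold changes under each alternative are plotted for the 13 rows.

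**Figure D4:**
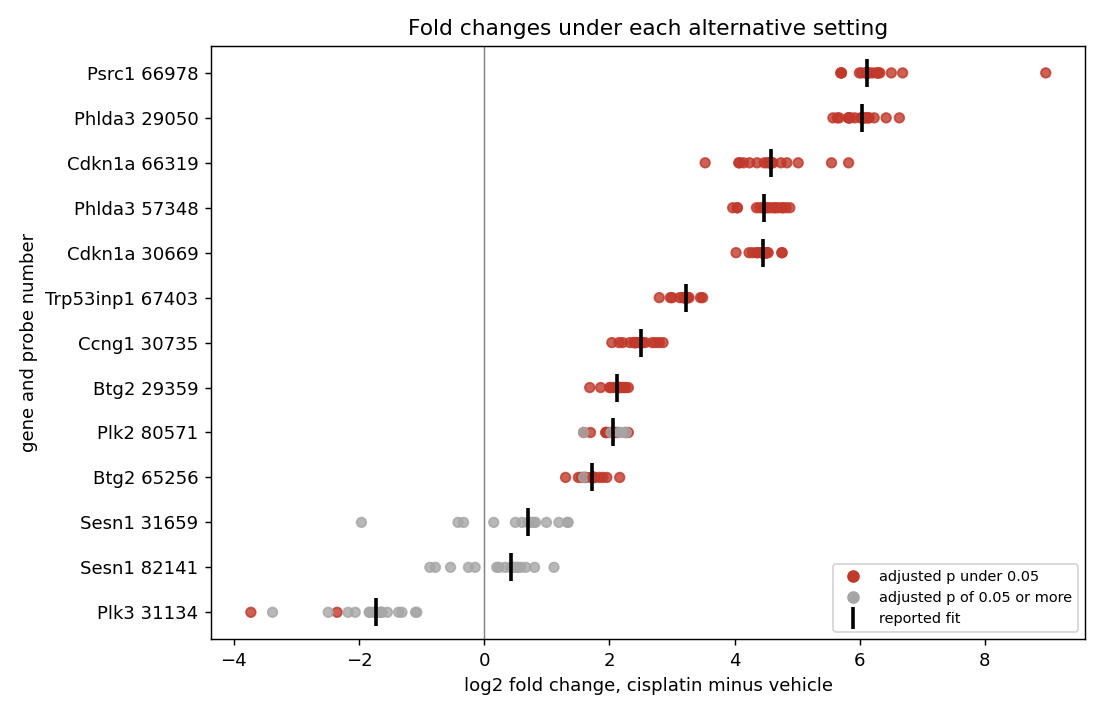
Log2 fold change of each tested row under each alternative setting, in red where the adjusted p was under 0.05 and in grey otherwise, with a black tick at the reported fit. The rows of Cdkn1a, Phlda3, Trp53inp1, Ccng1 and Psrc1 stay red throughout, while Plk2 and 1 Btg2 row turn grey in places and Sesn1 lies on both sides of 0.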

How the data were processed

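TempO-Seq counts were deposited as whole numbers per probe row and library, made by the authors with the mouse whole transcriptome v1.1 probe set, per the labels' protocols. STAR 2.7.10b, fastp 0.23.2 and DESeq2 1.44.0 are listed, without roles, in the submitters' processing notes. For the genome build and the counting rule: not given in the sources used here. Every row named a gene, and totals were 1116916 to 2272276 counts.

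The edgeR filter for expressed rows (minimum count 10) left 9381 rows, which were scaled with TMM factors and tested in edgeR 4.0.16 (R 4.3.3) with a robust quasi-likelihood F-test on all 6 libraries, in a model of treatment alone. P-values were Benjamini-Hochberg adjusted over all rows and called under 0.05, two-sided. Fold changes are cisplatin minus vehicle. Differences within mice used a prior count of 0.5. Libraries of a mouse are paired by the animal identifier in the labels. Their deviations from the group means correlated at -0.0966, 0.0328 and 0.192. For cisplatin and vehicle libraries of different mice the correlations were -0.201 to 0.139. Alternatives were other scalings and filters, DESeq2 1.42.0, limma-voom (limma 3.58.1), a mouse block, summed probes, thinning, and libraries or mice left out. The steps were tested on simulated data.

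The genes and lists were chosen with earlier results of these data known. All 10 genes are named; of each list, up to 4 called genes with the largest change, Trp53 and Mdm2; of rows like Cdkn1a, the 5 nearest, of which 1 is not reported here. Other list genes were chosen as examples after their values were seen.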

Additional observations from a re-analysis of the deposited data

How the results depend on the processing

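The 10 rows called higher numbered 10 under RLE or upper quartile factors, library totals, a mean CPM filter, DESeq2, limma-voom, thinning and the mouse as a replicate block, 11 with no filter (a further Psrc1 probe, 31018) and 7 of 9 genes with probes summed, and 8 to 10 without single libraries or mice. The number called lower was 0, except 1 (Plk3) with library totals alone and without cisplatin library 3, a range of 0 to 1 over the left-out libraries and mice. Called rows over the whole table ranged from 1021 to 2538 over the same left-out libraries and mice, with 1085 and 1321 without vehicle library 1 or 3, and 1350, 1511 and 1021 without mouse 1, 2 or 3. Rows whose groups did not overlap numbered 10, or 9 with library totals and 7 of 9 genes with probes summed.

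Of 239 fold changes of single rows under alternatives, 223 kept direction and side of the threshold, 6 lost the call, 2 gained it and 8 reversed. The reversals were all Sesn1 rows that were not called in any setting. Probe 82141 was at -0.14 with library totals, -0.87 with limma-voom, -0.25 with the mouse as a replicate block, -0.78 without cisplatin library 2 and -0.54 without mouse 2, and probe 31659 was at -0.42, -0.33 and -1.96 with limma-voom, with the block and without cisplatin library 2. Without cisplatin library 1 they were at 1.11 and 1.33. The cause was not tested. The replicate block changed no member call (2197 rows called in all, against 2344). Thinning put Psrc1 probe 66978 at 8.97, a fitted value on few vehicle counts and no bound. Zmat3, 2 Psrc1 probes and 2 Sesn1 probes were below the filter on low counts, and the tested Plk3 and Sesn1 rows held 0 to 69 counts in a library.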

Other observations

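The 5 pathway lists held 35 entries with no tested row, with Sesn2 entered in 2 lists. Of these entries 3 had all cisplatin libraries above all vehicle libraries in CPM and 2 had them below. All 5 are given. Over all 14207 genes with no tested row these shares were 2.14% above and 5.35% below, many of them at or near 0 counts. Among the INK4 inhibitors of cyclin-dependent kinases 4 and 6, Cdkn2c (p18) had 23, 3 and 4 counts with cisplatin and 0 in each vehicle library, with most counts in cisplatin library 1. Cdkn2b (p15) had 24, 9 and 10 counts with cisplatin and 6, 10 and 9 with vehicle, which is 3.61-fold in CPM (counting interval at 95% of 2.16 to 6.17). Their partner Cdk6 had 1, 1 and 0 counts with cisplatin and 10, 6 and 12 with vehicle, a ratio of 0.150 (0.0173 to 0.595). Rb1, the retinoblastoma gene that these kinases phosphorylate, had 0, 1 and 0 counts with cisplatin and 8, 9 and 5 with vehicle, a ratio of 0.0955 (0.00231 to 0.591). Castor1, the arginine sensor upstream of mTORC1, had 5, 5 and 5 counts with cisplatin and 0, 0 and 1 with vehicle, a ratio of 31.5 (4.85 to 1327). The intervals cover counting error only, and none of these genes was tested.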
